A study of Mus musculus with 25 samples.

Results

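The transcripts of the respiratory chain were followed in mouse hepatocytes and in immune cells sorted from mouse liver. The members were 49 genes named for their part in the chain, 13 of them encoded by the mitochondrial genome and 36 by nuclear chromosomes, out of 18668 genes in the hepatocyte table and 51912 in the immune table. By complex they comprised 24 genes of complex I, 4 of complex II, 7 of complex III, 11 of complex IV, 2 of complex V and the gene of cytochrome c. All 49 were present in both tables. A filter on low counts left 48 for testing in hepatocytes, where mt-Atp8 had too few counts, and 49 in immune cells.

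RNA-seq counts were available for 13 hepatocyte libraries and 12 immune cell libraries. The GFP plasmid group (n = 2) and the IL-6 group (n = 3) were wild-type mice given a GFP or an IL6 plasmid by hydrodynamic tail vein injection, which delivers DNA to hepatocytes, and taken after 1 week. The IL-6 STAT3KO group (n = 3) were Stat3_floxed mice that received AAV-TBG-Cre, a virus with a hepatocyte-restricted promoter driving the recombinase, for 2 weeks, and the IL6 plasmid for 1 week. The DDC group (n = 2) were Stat3_floxed mice given AAV-TBG-GFP for 2 weeks and the DDC diet, which injures bile ducts, for 1 week; the DDC STAT3KO group (n = 3) differed from it in receiving AAV-TBG-Cre. All hepatocyte mice were labelled as C57BL/6J 129SV. The immune groups, each n = 2, came from wild-type mice: macrophages on normal diet, and macrophages, Ly6C-low monocytes, Ly6C-high monocytes, neutrophils and T cells after 1 week of DDC diet. Age and sex were not given in the labels used here. The IL-6 STAT3KO and IL-6 groups also differ in the floxed genotype and the virus, and the DDC and GFP plasmid groups in genotype, virus, plasmid injection and diet, so those factors cannot be told apart.

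The respiratory chain passes electrons from NADH (complex I) and succinate (complex II) through complex III and cytochrome c to oxygen at complex IV, and the proton gradient so formed drives ATP synthesis at complex V. Mitochondrial DNA encodes core subunits of complexes I, III, IV and V and is transcribed as long RNAs that are cut into gene-sized pieces, whereas complex II and most other subunits come from nuclear genes whose promoters often hold sites for NRF1, GABPA and YY1. Hepatocytes are rich in mitochondria, and IL-6 acts on them through the transcription factor STAT3.

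Stat3, the gene targeted by the Cre virus, was measured at 109 and 98.9 CPM (the usual counts-per-library-size unit, here on library sizes scaled by TMM) with the GFP plasmid, 340, 351 and 424 in IL-6, 116, 96.0 and 116 in IL-6 STAT3KO, 150 and 112 in DDC and 62.1, 56.3 and 87.3 in DDC STAT3KO. The knockout libraries were below their partners in both pairs, without overlap, but the IL-6 STAT3KO libraries overlapped the wild-type GFP plasmid libraries, so no loss of Stat3 was seen between those groups. Total counts ran from 13625040 to 18428988 per hepatocyte library and from 3817794 to 12945663 per immune library. IL-6 replicate 3 stood apart in its Il6 transcript, at 351 CPM, where replicates 1 and 2 had 4.89 and 3.21, and in EGFP, at 486 CPM, where they had 9.24 and 5.73. The libraries labelled as T cells held 333 to 348 CPM of summed T cell markers beside 7330 to 13100 CPM of macrophage markers, and entered no comparison. Hepatocyte markers (8 genes) summed to between 58100 and 162000 CPM in every hepatocyte library, while single markers differed. Fgb, which encodes a fibrinogen chain, was at 32100 to 40300 CPM with IL-6 against 4250 and 3620 CPM in GFP plasmid, Cps1, a urea cycle enzyme gene, at 708 to 1460 against 5870 and 5710 CPM, and Alb at 6390 CPM in IL-6 replicate 3 against 84200 and 33900 CPM in replicates 1 and 2.

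Several mitochondrial members have near-identical copies in the nuclear genome, and the sequences below show how little separates them. A cluster of copies lies on chromosome 1 of GRCm38, on the reverse strand. The copies of mt-Co2 (Gm28661), mt-Atp6 (Gm10925), mt-Co3 (Gm28437) and mt-Nd4l (Gm10222) matched their mitochondrial gene at 100% of the aligned bases over 99.6%, 99.6%, 99.9% and 99.0% of its length. Gm28439 matched mt-Nd4 at 100% of the aligned bases over 63.6% of the length of mt-Nd4. Gm28438 matched mt-Nd3 over 99.1% of its length with 1 difference, T3C, and Gm29216 matched mt-Co1 over 31.3% of its length with 1 difference, A1066T, positions being counted from the first base of the mitochondrial transcript. The stretches are from GENCODE annotation of GRCm38, 5′ to 3′, and a capital marks the base that differs; the mt-Co3 pair has none.
mt-Co1, chrM:6390-6449, forward strand: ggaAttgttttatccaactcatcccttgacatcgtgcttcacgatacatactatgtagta
Gm29216, chr1:24616129-24616188, reverse strand: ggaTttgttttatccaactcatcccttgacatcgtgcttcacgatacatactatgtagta
mt-Co3, chrM:8607-8666, forward strand: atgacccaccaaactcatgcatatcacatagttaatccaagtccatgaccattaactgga
Gm28437, chr1:24613912-24613971, reverse strand: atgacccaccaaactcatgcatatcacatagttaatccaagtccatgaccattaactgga
mt-Nd3, chrM:9459-9518, forward strand: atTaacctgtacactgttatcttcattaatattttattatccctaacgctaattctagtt
Gm28438, chr1:24613060-24613119, reverse strand: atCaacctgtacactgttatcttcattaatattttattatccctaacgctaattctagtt

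How reads that fit both places were counted is not given in the sources used here. Summed over the hepatocyte libraries, mt-Co3 had 3665 counts and its copy 3535, mt-Co2 had 3758 and its copy 4576, mt-Atp6 had 2022 and its copy 5294, and mt-Nd3 had 207 and its copy 1112. mt-Co1 had 4637833 counts against 1814 at its chromosome 1 copy, and mt-Nd4 had 521982 against 1711. The levels of mt-Co2, mt-Co3, mt-Atp6, mt-Nd3 and mt-Nd4l are therefore uncertain, and each value of theirs below carries that limit. Among the nuclear members, processed copies of Cox5b, Cox7c, Cycs, Ndufs3 and Uqcrb were counted far below the gene itself, at 15 to 157 counts against 7757 to 25015. Where genes overlap (mt-Atp8 with mt-Atp6, mt-Nd4l with mt-Nd4, and mt-Nd5 with mt-Nd6 on the opposite strand), reads in the shared bases cannot be assigned.

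Promoter windows of 250 bases before to 50 after the start were available for 26 of the 36 nuclear members (27 windows, RefSeq, GRCm38.p6). The NRF1 core GCATGCGC was found on either strand in 14.8% of these windows, against 2.71% of all 32817 promoter windows of the same length. The GABPA core CCGGAAG was found in 18.5% against 8.86%, and the YY1 core AANATGGC in 25.9% against 6.04%. The STAT site TTCNNNGAA was found in 3.7% against 8.29%, and the single window with it was that of Ndufa8. The 3 windows printed are those of Sdhb, the member with the greatest change under IL-6, Cycs, which encodes cytochrome c, and Ndufa8, which had the smallest change under IL-6; they are trimmed to 150 bases before and 30 after the start, with motif matches in capitals. In Sdhb these are the NRF1 and GABPA cores, in Cycs the NRF1 core, and in Ndufa8 a STAT site and the NRF1 core. The letters of the GABPA core and the STAT site can share bases, and a match describes the sequence only.
Sdhb, chr4:140961121-140961300, forward strand: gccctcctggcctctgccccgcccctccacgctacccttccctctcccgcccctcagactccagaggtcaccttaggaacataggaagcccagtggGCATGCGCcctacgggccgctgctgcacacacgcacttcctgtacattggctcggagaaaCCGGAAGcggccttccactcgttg
Cycs, chr6:50566540-50566719, reverse strand: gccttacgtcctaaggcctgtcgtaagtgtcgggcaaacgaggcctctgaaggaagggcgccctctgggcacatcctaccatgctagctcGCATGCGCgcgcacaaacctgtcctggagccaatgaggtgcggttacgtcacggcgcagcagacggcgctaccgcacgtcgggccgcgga
Ndufa8, chr2:36049309-36049488, reverse strand: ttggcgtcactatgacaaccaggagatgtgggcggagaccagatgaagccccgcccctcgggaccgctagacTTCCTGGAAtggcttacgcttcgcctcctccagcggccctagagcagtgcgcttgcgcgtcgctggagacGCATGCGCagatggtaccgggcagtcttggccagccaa

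Across the hepatocyte groups, transcripts of the nuclear members were highest in the GFP plasmid libraries, reaching 5936 and 6200 CPM summed over the 36 genes. They summed to 2887, 2971 and 2562 CPM with IL-6 and to 4210, 4387 and 4782 CPM in IL-6 STAT3KO. With DDC they summed to 3233 and 2900 CPM, and in DDC STAT3KO to 3959, 3115 and 4937 CPM. Both GFP plasmid libraries lay above all 11 others, the 3 IL-6 libraries lay below all IL-6 STAT3KO libraries, and the DDC and DDC STAT3KO ranges overlapped.

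The mitochondrial members followed a different order. They summed to 55822 and 55063 CPM in GFP plasmid, 29892, 22851 and 31343 CPM with IL-6, and 58295, 48979 and 41611 CPM in IL-6 STAT3KO. With DDC the sums were 48710 and 41997 CPM, and in DDC STAT3KO 17333, 43362 and 52534 CPM. The 3 IL-6 libraries were below every other hepatocyte library but DDC STAT3KO replicate 1, which was the lowest of all 13. The counts of mitochondrial members per nuclear member count were 9.40 and 8.88 in GFP plasmid, 10.4, 7.69 and 12.2 in IL-6, 13.8, 11.2 and 8.70 in IL-6 STAT3KO, 15.1 and 14.5 in DDC, and 4.38, 13.9 and 10.6 in DDC STAT3KO. Both DDC libraries were above the GFP plasmid and the DDC STAT3KO libraries in that ratio, and the other pairs of groups compared here overlapped.

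**Figure D1:**
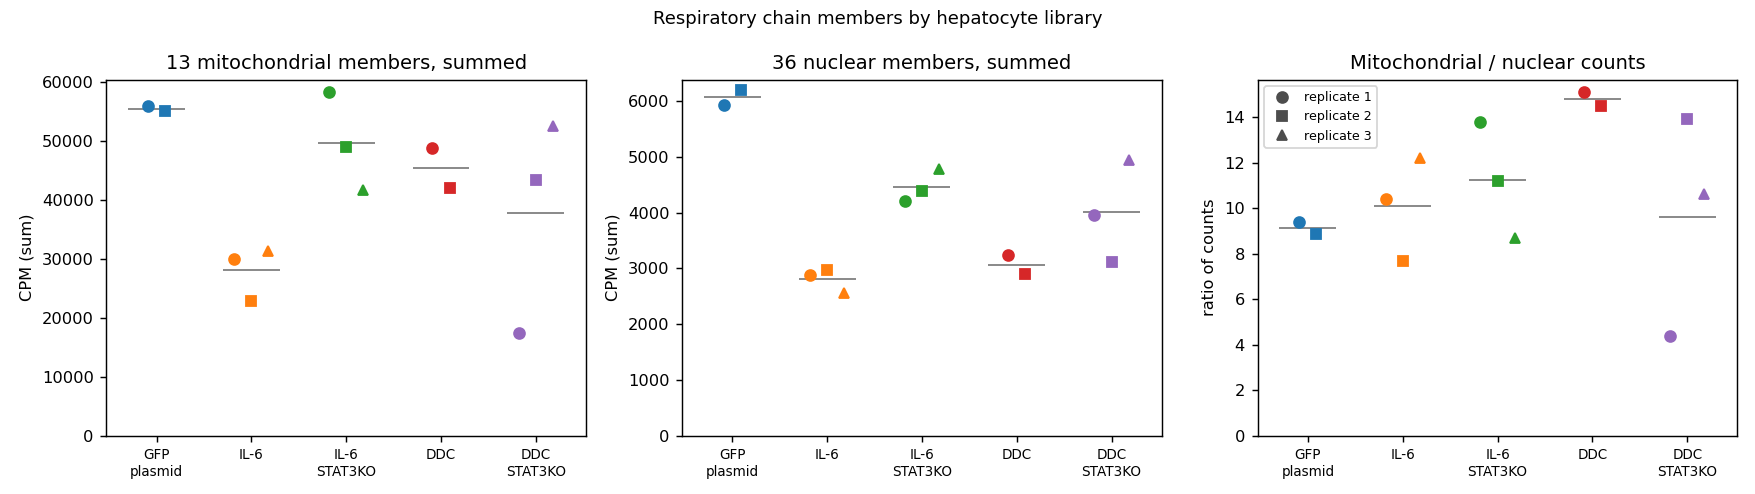
Summed CPM of the 13 mitochondrial members, summed CPM of the 36 nuclear members, and the ratio of their counts, for each of 13 hepatocyte libraries (marker shape: replicate; line: group mean; axes start at 0). The nuclear sums of the IL-6 and DDC libraries lie between 2562 and 3233 CPM, below 5936 and 6200 in GFP plasmid, while only the IL-6 libraries and DDC STAT3KO replicate 1 lie at or below 31343 CPM in the mitochondrial sum.

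Compared per kilobase of exon, mitochondrial members held both the highest and the lowest levels. Those below mt-Nd6, at 1020 CPM per kb in GFP plasmid, were mt-Co2, mt-Co3, mt-Atp6, mt-Nd3, mt-Nd4l and mt-Atp8. The level of mt-Atp8 rests on few counts and those of the others are uncertain because of their copies, so the low end is uncertain. In the GFP plasmid libraries (n = 2), mt-Co1, the catalytic subunit of complex IV, stood at 19500 ± 278 CPM per kb (SD), followed by mt-Cytb of complex III at 7170 ± 49.2. The complex I genes mt-Nd1 and mt-Nd2 came next at 4520 ± 72.4 and 4250 ± 117 CPM per kb, which lay beyond their spread from mt-Cytb. The highest nuclear member was Cox8a, a small subunit of complex IV, at 281 CPM per kb, and the lowest was Ndufb5 at 7.52. mt-Co2 and mt-Co3, the other core subunits of complex IV, were counted at 27.3 and 22.3 CPM per kb; they lie on the same strand as mt-Co1, and their copies on chromosome 1 took 4576 and 3535 counts over all libraries against their own 3758 and 3665.

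**Figure D2:**
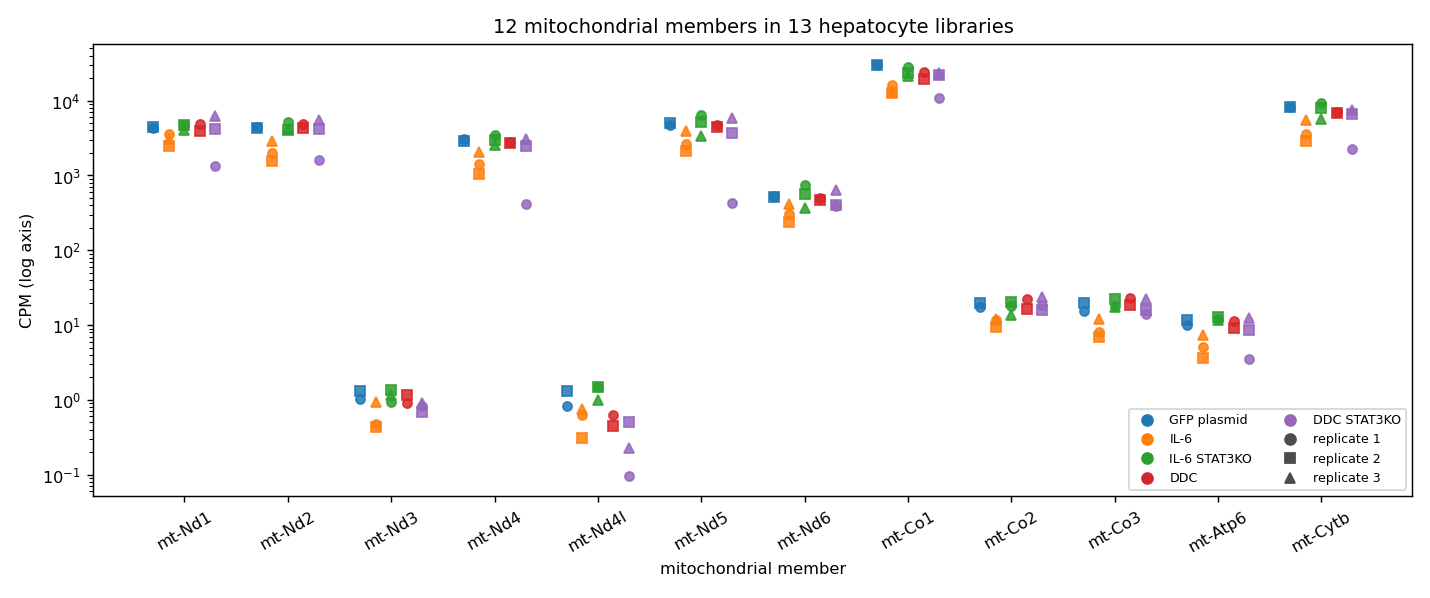
CPM of 12 mitochondrial members (log axis, mt-Atp8 left out at 0 to 7 counts per library) in 13 hepatocyte libraries (colour: group; shape: replicate). mt-Co1 lies above 10000 CPM in each library, mt-Co2, mt-Co3 and mt-Atp6 between 3.49 and 24.0 CPM, and DDC STAT3KO replicate 1 falls below the other libraries for mt-Nd4 and mt-Nd5.

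Members of the 2 genomes varied largely within their own set. Over the 13 hepatocyte libraries, the median Pearson correlation of log2 CPM was 0.81 over 630 pairs of nuclear members and 0.82 over 45 pairs of mitochondrial members, against 0.36 over 360 mixed pairs (10 mitochondrial members above 1 CPM). These are descriptions over libraries that share their groups. The genes most like Cox5a were Prrg2 (r = 0.976), the ATP synthase gene Atp5g3 (0.970) and the mitochondrial ribosomal gene Mrpl2 (0.963). Those most like mt-Co1 were Adra1b (0.921), Fech (0.915) and mt-Cytb (0.908), among 5752 genes averaging 20 CPM or more.

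The first comparison asked how the chain differed in hepatocytes of mice carrying the IL6 plasmid. With IL-6, 31 of the 36 nuclear members fell and none rose, with a median log2 fold change of -1.11 against 0.04 over all genes; over all 14339 genes tested, 12.2% were called lower and 13.7% higher (edgeR quasi-likelihood test, Benjamini-Hochberg adjusted p below 0.05). All 4 members of complex II fell, as did 14 of 17 of complex I, 5 of 6 of complex III, 7 of 8 of complex IV and Cycs. Of the 12 mitochondrial members tested, 3 fell, all of complex IV, and the median of the 12 was -0.93.

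Complex II, which is also an enzyme of the citric acid cycle, held the members with the greatest change. Sdhb, its iron-sulfur subunit, was at 263 and 283 CPM in GFP plasmid and at 71.7, 72.6 and 57.8 CPM with IL-6, 4.06-fold lower (log2 -2.02, SE 0.21, adjusted p = 7.19e-05). Sdha, the flavoprotein that oxidises succinate, was at 678 and 662 CPM against 258, 235 and 199 CPM (log2 -1.54, SE 0.23, adjusted p = 0.000686). For both genes the IL-6 libraries lay far below the controls and close to each other. Sdhc and Sdhd, the membrane anchors, fell by 0.95 and 0.87 on the log2 scale.

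In complex I, the greatest changes were in accessory subunits of the membrane arm. Ndufb10 was at 126 and 130 CPM in GFP plasmid and at 48.4, 51.8 and 36.8 CPM with IL-6 (log2 -1.48, SE 0.27, adjusted p = 0.00218). Ndufb9 was at 209 and 236 CPM against 79.0, 90.6 and 73.6 CPM (log2 -1.46, SE 0.22, adjusted p = 0.000726). The groups did not overlap for either gene. Ndufa5, an accessory subunit of the matrix arm, fell by 1.32, Ndufb8 by 1.28 and Ndufs1, the large iron-sulfur subunit of the NADH-oxidising module, by 1.22 on the log2 scale.

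In complex III, Cyc1, which carries the heme that passes electrons to cytochrome c, was at 267 and 270 CPM in GFP plasmid and at 112, 116 and 98.8 CPM with IL-6 (log2 -1.30, SE 0.23, adjusted p = 0.00184). Uqcrc2, a core protein of the complex, fell by 1.23 on the log2 scale. In complex IV, Cox7c was at 195 and 196 CPM against 82.0, 89.0 and 68.4 CPM (log2 -1.29, SE 0.19, adjusted p = 0.00067). Ndufa4, a complex IV subunit despite its name, fell by 1.27 and Cox5b by 1.18. Each of these genes had every IL-6 library below both controls.

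Not called lower were 5 nuclear members: Cox8a (log2 -0.78, adjusted p = 0.0595), Ndufa2 (-0.75, adjusted p = 0.0899), Ndufs8 (-0.66), Uqcrq (-0.50) and Ndufa8 (-0.24, adjusted p = 0.432). Uqcrq, a small subunit of complex III, was at 314 and 324 CPM in GFP plasmid and at 229, 267 and 183 CPM with IL-6. Ndufa8, an accessory subunit of complex I, was at 80.2 and 73.5 CPM against 69.2, 65.7 and 60.3 CPM. Even in these genes the IL-6 libraries were below the controls without overlap, but by less.

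Of the mitochondrial members, mt-Co1 was at 30400 and 29800 CPM in GFP plasmid and at 16400, 12500 and 13500 CPM with IL-6 (log2 -1.09, SE 0.35, adjusted p = 0.0383). mt-Co3 was at 15.5 and 19.5 CPM against 8.13, 6.97 and 12 CPM (log2 -0.95, SE 0.27, adjusted p = 0.0211), and its nuclear copy Gm28437 differed by -1.04 (adjusted p = 0.0202). mt-Co2 was at 17.6 and 19.7 CPM against 11.8, 9.37 and 12.1 CPM (log2 -0.75, SE 0.24, adjusted p = 0.0347). All 3 genes had every IL-6 library below the controls. The other 9 gave values between -1.04 (mt-Cytb) and -0.51 (mt-Nd1) that did not pass the test: mt-Nd2 -1.03, mt-Nd3 -0.91, mt-Nd4 -0.99, mt-Nd4l -0.92, mt-Nd5 -0.75, mt-Nd6 -0.72 and mt-Atp6 -1.03. Their standard errors reached 0.70, while those of mt-Co2 and mt-Co3 were 0.24 and 0.27.

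Of the mitochondrial calls none was present in every one of the 13 fits compared, against 21 of the 31 nuclear calls. Without either GFP plasmid library, IL-6 replicate 1 or IL-6 replicate 2 the mitochondrial count was 0, and it was 2 without IL-6 replicate 3. The cholangiocyte markers in the table (Krt7, Epcam and Spp1) summed to 1.66 to 3.44 CPM in GFP plasmid and to 2120 to 10700 CPM with IL-6, and the 10 macrophage markers to 35.1 to 45.1 and 93.3 to 201 CPM. Krt19 and Cftr, also on the cholangiocyte list of 5, were absent from the hepatocyte counts, which hold no gene below 10 counts in total. The erythroid markers summed to 161 to 175 CPM in GFP plasmid and 3.08 to 8.24 CPM with IL-6. The part of these markers in the result was not tested. In bulk RNA, fewer cells of a type and less RNA per cell cannot be told apart.

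Related genes outside the 49 were counted against the 12.2% of all genes called lower with IL-6. Of 26 other nuclear subunits of complexes I, III and IV, 20 fell, among them Ndufa12 (log2 -1.44) and Ndufab1 (-1.14), and of 17 ATP synthase genes 13 fell, among them Atp5c1 (-1.19) and Atp5g3 (-1.02). Of 38 assembly factors 10 fell, including Uqcc1 (-0.93) and Sco1 (-0.92), and of 26 genes that copy, transcribe and handle mitochondrial nucleic acids 7 fell, including Grsf1 (-0.87) and Polg2 (-1.57). Of 13 citric acid cycle genes 9 fell, including Idh3b (-1.70) and Idh3g (-1.06). No gene of these lists rose.

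Among 11 regulators of mitochondrial biogenesis, 5 fell with IL-6. The coactivator gene Ppargc1b gave a log2 fold change of -3.29 (SE 0.57, adjusted p = 0.00154), the mitochondrial deacetylase gene Sirt3 -1.84, the fatty acid sensor gene Ppara -1.78 and the nuclear receptor gene Esrra -1.15. Of 77 mitochondrial ribosomal proteins 19 fell and 2 rose, with a median of -0.38 against 0.04 over all genes. Of 76 cytosolic ribosomal proteins 2 fell, Rpl35a (-0.78) and Rps27l (-0.77), and none rose.

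The second comparison set IL-6 STAT3KO against IL-6. Of the 36 nuclear members 21 were higher in the knockout and none lower, with a median log2 fold change of 0.65 against 0.00 over all genes, of which 13% were called higher and 13.4% lower (edgeR). All 4 members of complex II rose, as did 10 of 17 of complex I, 4 of 6 of complex III, 2 of 8 of complex IV and Cycs. Of the 12 mitochondrial members 3 rose, with a median of 0.92 over the 12.

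Complex II again gave the greatest change. Sdhb was at 203, 187 and 199 CPM in IL-6 STAT3KO against 71.7, 72.6 and 57.8 CPM with IL-6, 2.92-fold higher (log2 1.54, SE 0.20, adjusted p = 0.000165). Sdha was at 523, 457 and 526 CPM against 258, 235 and 199 CPM (log2 1.12, SE 0.21, adjusted p = 0.00237). The knockout libraries were all above the IL-6 libraries for both genes. Sdhc and Sdhd rose by 0.94 and 0.84 on the log2 scale.

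In complex I, Ndufa10 was at 131, 137 and 146 CPM against 66.8, 73.5 and 70.0 CPM with IL-6 (log2 0.98, SE 0.17, adjusted p = 0.00154). Ndufs1 rose by 0.96, Ndufv1, which binds NADH, by 0.83 and Ndufa9 by 0.82. In complex III the core proteins Uqcrc2 and Uqcrc1 rose by 0.92 and 0.88, and Cycs rose by 0.84. The 2 genes of complex IV that rose were Ndufa4 (0.85) and Cox7c (0.67). The furthest from 0 among the genes not called were Cox7b (0.64, adjusted p = 0.0516) and Ndufb10 (0.60, adjusted p = 0.0957).

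For 3 members the knockout gave values near or below 0. Uqcrq was at 137, 164 and 191 CPM in IL-6 STAT3KO against 229, 267 and 183 CPM with IL-6 (log2 -0.47, SE 0.25, adjusted p = 0.194). Ndufa2 was at 31.0, 40.5 and 49.8 CPM against 45.6, 54.5 and 28.7 CPM (log2 -0.09, adjusted p = 0.85), and Ndufa1 gave 0.01. In all 3 genes the groups overlapped.

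Of the mitochondrial members, mt-Co3 was at 18, 22.6 and 17.3 CPM against 8.13, 6.97 and 12 CPM (log2 1.09, SE 0.24, adjusted p = 0.00625). mt-Atp6, a complex V subunit, was at 12.1, 13 and 11.6 CPM against 5.13, 3.58 and 7.36 CPM (log2 1.19, SE 0.39, adjusted p = 0.0401). mt-Co2 rose by 0.64 (adjusted p = 0.0447). The groups did not overlap for these 3, each of which shares its sequence with a chromosome 1 copy; of the copies, Gm28437 rose by 0.84, Gm28661 by 0.81, and Gm10925 gave 1.34 (adjusted p = 0.0617). The other 9 lay between 0.57 (mt-Nd1) and 1.23 (mt-Nd4l) and did not pass: mt-Nd2 1.04, mt-Nd3 0.90, mt-Nd4 0.99, mt-Nd5 0.79, mt-Nd6 0.80, mt-Co1 0.79 and mt-Cytb 0.94.

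The number of nuclear calls was 13 without IL-6 replicate 2, 11 without IL-6 STAT3KO replicate 3 and 15 without IL-6 replicate 1. It was 14 without IL-6 replicate 3 or IL-6 STAT3KO replicate 2. Over all genes, in the same order, 1199 of 14209, 1297 of 14270, 1229 of 14274, 1830 of 14230 and 1632 of 14273 were called higher. In every one of 14 fits, 10 nuclear members and mt-Co3 were called. The mitochondrial count was 1 without IL-6 replicate 1, IL-6 replicate 2, IL-6 STAT3KO replicate 1 or IL-6 STAT3KO replicate 2. The cholangiocyte marker sum was 3.96 to 41.6 CPM in IL-6 STAT3KO against 2120 to 10700 CPM with IL-6, and the erythroid sum 70.3 to 116 against 3.08 to 8.24 CPM; their part in the result was not tested.

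In the related lists, where 13% of all genes were called higher, 9 of 13 citric acid cycle genes rose, including Idh3b (log2 1.20), as did 11 of 38 assembly factors, including Uqcc1 (0.93), and 4 of 26 genes of mitochondrial nucleic acid handling, including Lrpprc (0.77). Of the other nuclear subunits 3 of 26 rose (Ndufab1, Cox7a2 and Ndufs7), and of the ATP synthase genes 4 of 17 (Atp5c1, Atp5a1, Atp5f1 and Atp5b). The counts for nucleic acid handling and for the other nuclear subunits were near the share over all genes and are no result about those lists. Of 3 tissue-restricted isoforms tested, Cox6b2 rose (2.06, adjusted p = 0.0101). Of 11 biogenesis regulators 5 rose and 1 fell, with Ppargc1b at 1.79, Ppara at 1.47, Sirt3 at 1.31 and Esrra at 1.01. Of 77 mitochondrial ribosomal proteins 7 were higher and 7 lower, below the share over all genes each way and no result about that list. Of 76 cytosolic ribosomal proteins 50 fell, among them Rps29 (-1.56) and Rps12 (-1.53).

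**Figure D3:**
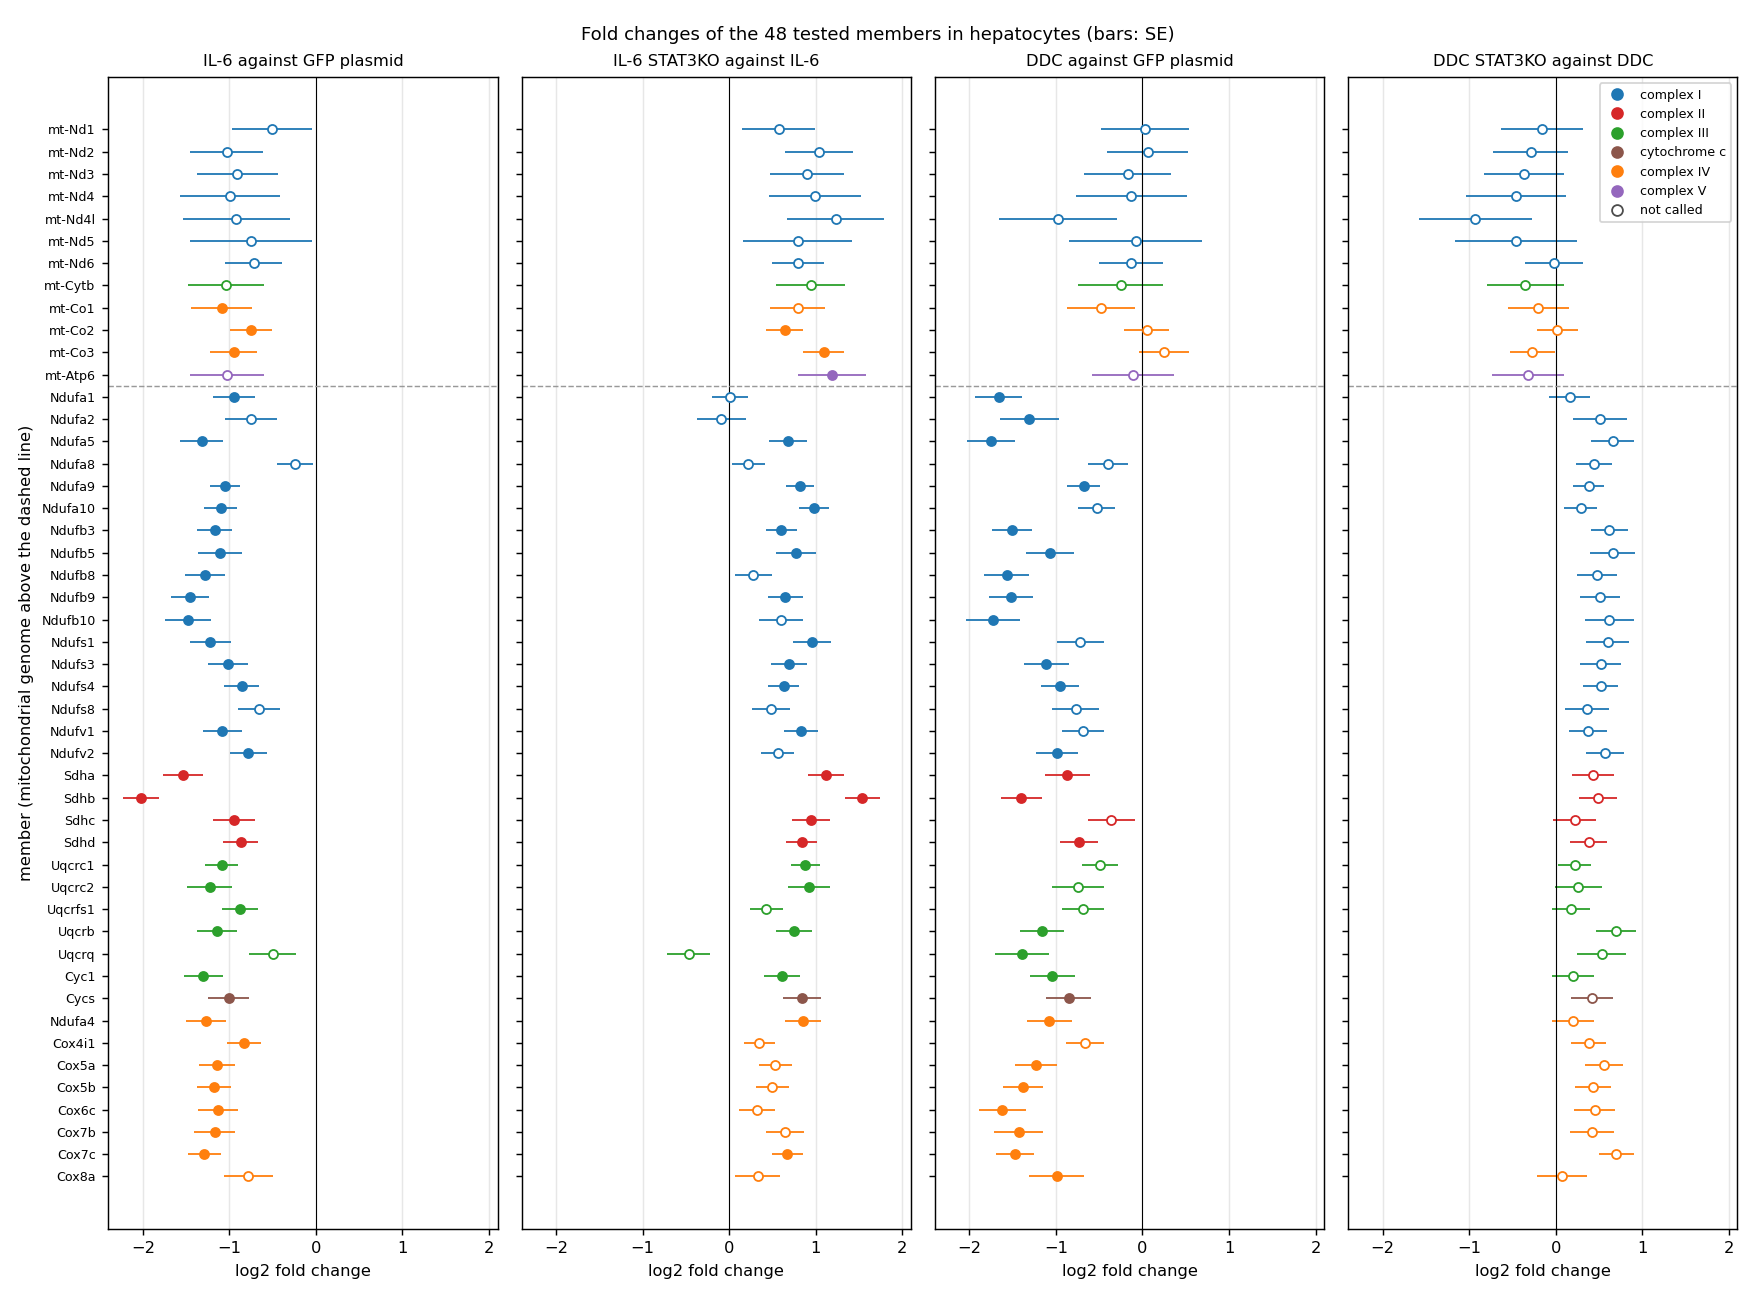
Log2 fold changes with their standard errors (bars) for the 48 tested members in 4 hepatocyte comparisons, by complex (colour), with filled points for called genes (edgeR adjusted p below 0.05) and mitochondrial members above the dashed line. With IL-6 all 48 values lie below 0; with DDC the nuclear values lie below 0, between -1.75 and -0.36, while the mitochondrial values lie between -0.98 and 0.25.

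Set against the GFP plasmid group directly, IL-6 STAT3KO hepatocytes gave 1 nuclear call. Ndufb8, an accessory subunit of complex I, was at 34.9, 35.9 and 41.4 CPM against 72.2 and 78.3 CPM (log2 -1.01, SE 0.23, adjusted p = 0.0322); over all genes 0.865% were called lower and 2.26% higher. All 36 nuclear values were below 0, with a median of -0.43 against 0.02 over all genes. Of these, 15 had an unadjusted p below 0.05 (edgeR), against 2743 of all 14339 genes. The furthest not called were Uqcrq (-0.96, adjusted p = 0.0827) and Ndufa1 (-0.93, adjusted p = 0.0539). Of the 12 mitochondrial members edgeR and DESeq2 called 0, with 0 at an unadjusted p below 0.05; their median was 0.03, and the values ran from mt-Co1 at -0.30 to mt-Nd4l at 0.31.

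The Ndufb8 call did not hold when any of the 5 libraries compared was left out. DESeq2 called 8 nuclear members lower, against 364 of 13757 genes in all. By complex the nuclear medians were -0.23 for complex II, -0.33 for complex I, -0.42 for complex III and -0.57 for complex IV. This comparison uses the same GFP plasmid libraries as the IL-6 comparison.

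The DDC diet comparison also used those GFP plasmid libraries. With DDC, 26 of the 36 nuclear members fell and none rose, with a median log2 fold change of -1.06 against 0.02 over all genes, of which 8.29% were called lower and 10.4% higher (edgeR). By complex, 12 of 17 fell in complex I, 3 of 4 in complex II, 3 of 6 in complex III and 7 of 8 in complex IV, with Cycs. Of the 12 mitochondrial members, edgeR and DESeq2 called 0, and 0 had an unadjusted p below 0.05; their median was -0.12. Whether the nuclear and the mitochondrial sets differed in their response was not tested.

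The greatest changes were in small accessory subunits of complex I. Ndufa5 was at 18.5 and 15.5 CPM with DDC against 54.9 and 59.5 CPM in GFP plasmid, 3.36-fold lower (log2 -1.75, SE 0.28, adjusted p = 0.00263). Ndufb10 was at 42.1 and 35.1 CPM against 126 and 130 CPM (log2 -1.73, SE 0.31, adjusted p = 0.00441). Ndufa1 was at 21.8 and 19.1 CPM against 64.3 and 64.8 CPM (log2 -1.66, SE 0.27, adjusted p = 0.00276). For each of them both DDC libraries were far below both controls. Ndufb8 fell by 1.57, Ndufb9 by 1.52 and Ndufb3 by 1.51 on the log2 scale.

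In complex IV, Cox6c was at 67.3 and 60.2 CPM against 186 and 206 CPM (log2 -1.62, SE 0.27, adjusted p = 0.00299), and Cox7c at 69.7 and 71.5 CPM against 195 and 196 CPM (log2 -1.47, SE 0.22, adjusted p = 0.00202). Cox7b and Cox5b fell by 1.43 and 1.38. In complex II, Sdhb was at 112 and 95.6 CPM against 263 and 283 CPM (log2 -1.40, SE 0.24, adjusted p = 0.00357). In complex III, Uqcrq was at 133 and 110 CPM against 314 and 324 CPM (log2 -1.39, SE 0.31, adjusted p = 0.0116). None of these groups overlapped.

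The nuclear members furthest from 0 that were not called were Ndufs8, an iron-sulfur subunit of complex I (log2 -0.77, adjusted p = 0.0673), and Uqcrc2 (-0.74, adjusted p = 0.0973). Sdhc, at 117 and 109 CPM against 143 and 147 CPM, gave -0.36 (adjusted p = 0.367), and Ndufa8 gave -0.40. Of the mitochondrial members, mt-Co1 was at 23900 and 19300 CPM against 30400 and 29800 CPM (log2 -0.48, SE 0.39, adjusted p = 0.41). mt-Nd5 was at 4670 and 4490 CPM against 4760 and 4960 CPM (log2 -0.08, SE 0.77). The DDC libraries were below the controls for both, by less than the standard error in mt-Nd5. The rest gave mt-Nd4l -0.98, mt-Cytb -0.25, mt-Nd3 -0.17, mt-Nd4 -0.13, mt-Nd6 -0.13, mt-Atp6 -0.11, mt-Nd1 0.03, mt-Co2 0.05, mt-Nd2 0.06 and mt-Co3 0.25.

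**Figure D4:**
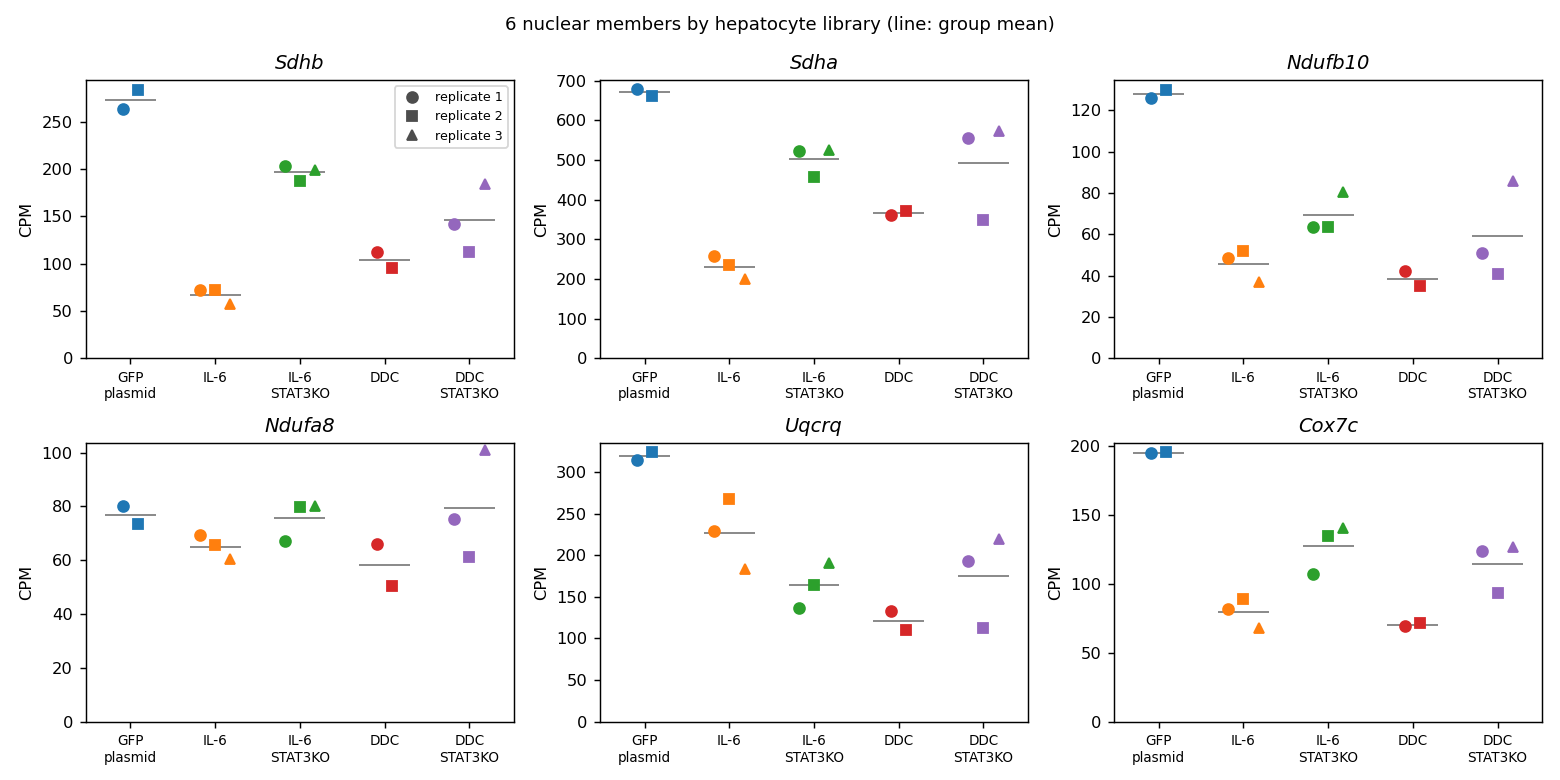
CPM of 6 nuclear members (Sdhb and Sdha of complex II, Ndufb10 and Ndufa8 of complex I, Uqcrq of complex III, Cox7c of complex IV) in 13 hepatocyte libraries (marker shape: replicate; line: group mean; axes start at 0). Sdhb lies at 57.8 to 72.6 CPM with IL-6 and at 187 to 203 CPM in IL-6 STAT3KO, whereas Uqcrq lies at 183 to 267 and at 137 to 191 CPM.

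Coding length was set against the fold changes. Among the 36 nuclear members, the log2 fold change with DDC and the log2 coding length had a Pearson correlation of 0.56, the 18 with coding lengths up to 520 bases having a median of -1.27 and the 18 longer ones -0.91. Over the 12863 genes tested that had a coding length, the medians were -0.39 and 0.10, split at the same length. With IL-6 the correlation was -0.23, with medians of -1.07 and -1.11. In IL-6 STAT3KO against IL-6 the correlation was 0.54, with medians of 0.56 for the shorter and 0.73 for the longer members. In DDC STAT3KO against DDC it was -0.11. The part of length in these results was not tested.

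In all 12 fits compared the 36 nuclear values were below 0, with medians between -1.17 and -0.90. Leaving out a DDC or GFP plasmid library left 1 library in that group. Fewer nuclear members were called lower in each of those fits, as were fewer of all genes. In every one of the 12 fits, 10 members were called. The macrophage markers summed to 320 to 545 CPM with DDC against 35.1 to 45.1 CPM in GFP plasmid, the cholangiocyte markers to 488 to 540 against 1.66 to 3.44 CPM, and the erythroid markers to 18.2 to 22.9 against 161 to 175 CPM; their part was not tested.

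Around the chain, where 8.29% of all genes were called lower, 20 of 26 other nuclear subunits fell with DDC, led by Ndufa12 (log2 -1.81) and Ndufb11 (-1.58), with 11 of 17 ATP synthase genes, including Usmg5 (-1.72) and Atp5e (-1.59). Of the assembly factors 11 of 38 fell, including Ndufaf4 (-1.26) and Cox11 (-1.67), and of the genes of mitochondrial nucleic acid handling 5 of 26, including Polg2 (-1.68), the transcription elongation factor gene Tefm (-0.96) and Tfam (-0.63), whose product packages mitochondrial DNA. Of 13 citric acid cycle genes 2 fell, Fh1 (-1.06) and Idh3b (-0.94), and of 11 biogenesis regulators 1, Sirt3 (-1.83), the latter near the share over all genes. Of 77 mitochondrial ribosomal proteins 22 fell, and of 76 cytosolic ones 10 fell and 1 rose. Of 3 tissue-restricted isoforms tested, Cox6b2 fell (-3.53, adjusted p = 0.00614).

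In DDC-fed mice, DDC STAT3KO against DDC gave no call among the members or any other gene by edgeR (0% higher and 0% lower of 14339), with 803 genes at an unadjusted p below 0.05; DESeq2 gave 2097 genes an adjusted p and called 4 higher and 11 lower, none of them a member. All 36 nuclear values were above 0, with a median of 0.44 against 0.01 over all genes, and 12 had an unadjusted p below 0.05. The furthest from 0 were Cox7c, at 124, 93.4 and 127 CPM against 69.7 and 71.5 CPM (log2 0.70, SE 0.20, adjusted p = 0.853), and Uqcrb (0.70, SE 0.23, adjusted p = 0.853). For both genes every knockout library was above both DDC libraries. Sdhb was at 142, 112 and 184 CPM against 112 and 95.6 CPM. Each related list also had a median above 0, with cytosolic ribosomal proteins at 0.35 and mitochondrial ribosomal proteins at 0.34. The cholangiocyte markers summed to 2.32 to 245 CPM in DDC STAT3KO against 488 to 540 CPM in DDC, and the macrophage markers to 65.1 to 490 against 320 to 545 CPM; their part was not tested.

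The mitochondrial members had a median of -0.30, with 0 at an unadjusted p below 0.05, and values from mt-Nd4l at -0.93 to mt-Co2 at 0.02. DDC STAT3KO replicate 1 stood apart: mt-Nd5 was at 427 CPM in it and at 3720 and 5840 CPM in replicates 2 and 3, and mt-Nd4 at 414 against 2500 and 3050 CPM. Relative to the mean of the other 2 libraries it had 0.0893 of mt-Nd5, 0.149 of mt-Nd4, 0.251 of mt-Nd1, 0.323 of mt-Cytb and 0.478 of mt-Co1. mt-Nd6, encoded on the opposite strand to the rest, was at 0.762 of that mean, mt-Co2 at 0.941, and the nuclear members at a median of 1.01 (range 0.48 to 1.52). Without this library the mitochondrial median was 0.05.

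A test of whether the knockout effect differed between IL-6 and DDC, chosen after the data were seen, called mt-Co3 and Sdhb among the 48 members, with 4.2% of all genes called higher and 4.08% lower (edgeR). The count of 2 is near that share and is no result about the members as a set. With IL-6 the knockout and its partner also differed in floxed genotype and virus, whereas both DDC groups were floxed and given a virus. In the difference, loss of STAT3 therefore cannot be told apart from genotype and virus. For Sdhb the knockout effect was 1.54 with IL-6 and 0.49 with DDC, a difference of 1.05 (SE 0.29, adjusted p = 0.0429). For mt-Co3 it was 1.09 and -0.27, a difference of 1.36 (SE 0.36, adjusted p = 0.0373). Uqcrq gave the furthest value of opposite sign, -0.99 (adjusted p = 0.128).

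Both calls were fragile. No mitochondrial call was made without either DDC library, DDC STAT3KO replicate 1 or 2, IL-6 replicate 1 or 2, or any IL-6 STAT3KO library, and 2 were made without DDC STAT3KO replicate 3. Of nuclear members, 0 were called without DDC STAT3KO replicate 1, any IL-6 library or any IL-6 STAT3KO library. The count was 2 without DDC STAT3KO replicate 2 and 5 without DDC STAT3KO replicate 3. Over all genes, 616 were called higher and 574 lower of 14197 without DDC STAT3KO replicate 2. Without DDC STAT3KO replicate 3 they were 858 and 753 of 14287. The nuclear counts are near those shares and are no result about the members.

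In the immune cells no member was called in any of 4 comparisons by edgeR. The spread was far wider than in hepatocytes, with a common biological coefficient of variation of 1.0 against 0.313. Summed over the 36 nuclear members, macrophages on normal diet had 4215 and 5278 CPM and macrophages on DDC 11234 and 8970 CPM. Ly6C-low monocytes had 6373 and 5740 CPM, Ly6C-high monocytes 8915 and 5640 CPM, and neutrophils 5680 and 2709 CPM. The DDC macrophages were the highest of these, with both libraries above every other in a comparison. As a share of all counts, without TMM scaling, they had 0.891% and 0.727%, against 0.665% and 0.629% on normal diet.

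The mitochondrial members summed to 13526 and 25257 CPM in macrophages on normal diet and to 40387 and 32778 CPM on DDC. They summed to 19660 and 26774 CPM in Ly6C-low monocytes, 20666 and 26629 CPM in Ly6C-high monocytes and 12064 and 14205 CPM in neutrophils. On TMM-scaled CPM both DDC macrophage libraries were again the highest of these 10, and the neutrophils overlapped only with normal-diet macrophages. As a share of all counts the DDC macrophages had 3.2% and 2.66%, overlapping those on normal diet at 2.13% and 3.01%. Neutrophils had 1.04% and 1.78%, overlapping Ly6C-high monocytes at 1.34% and 2.61%.

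**Figure D5:**
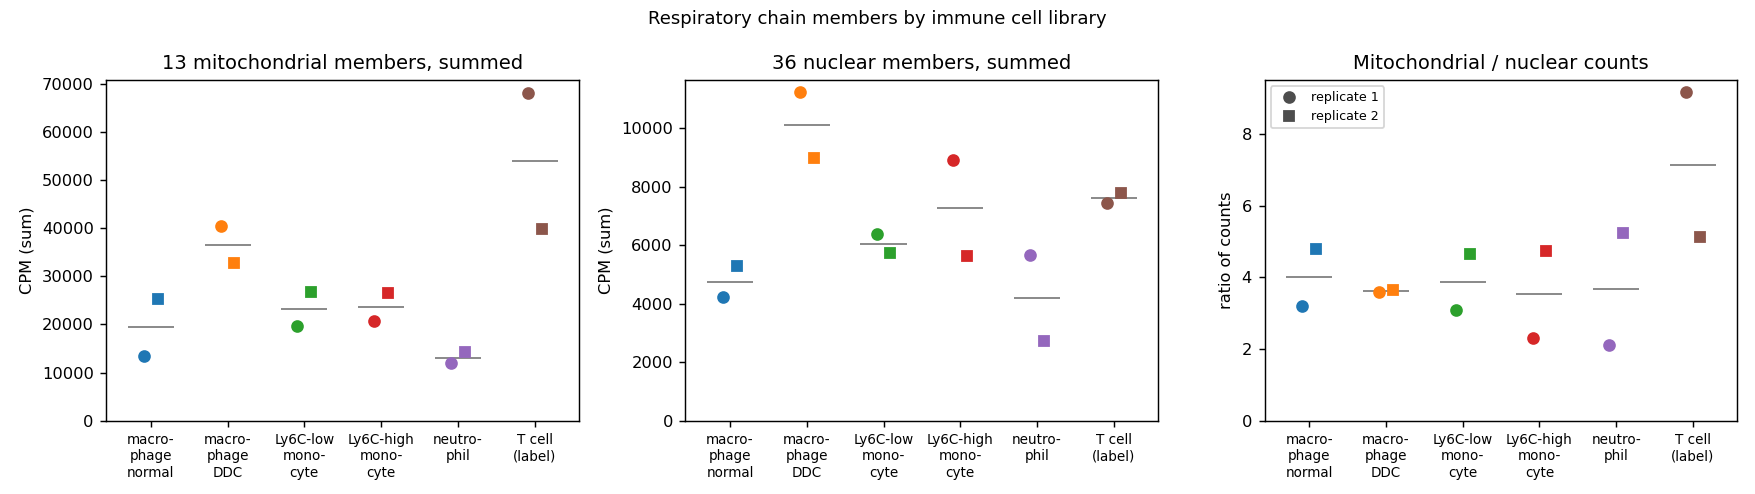
Summed CPM of the 13 mitochondrial members, summed CPM of the 36 nuclear members, and the ratio of their counts, for 12 immune cell libraries (marker shape: replicate; line: group mean; axes start at 0). The DDC macrophages lie at 8970 and 11234 CPM in the nuclear sum, above 4215 and 5278 CPM on normal diet; the libraries labelled T cell are shown but not compared.

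For macrophages on DDC against normal diet, 0.0252% of 27759 genes were called higher and 0% lower. The median log2 fold change was 1.32 over the 36 nuclear members and 0.67 over the 13 mitochondrial members, against -0.62 over all genes, and 19 nuclear and 2 mitochondrial members had an unadjusted p below 0.05, against 2935 of all genes. DESeq2 called 1 nuclear and 0 mitochondrial members; under its scaling the medians were 0.84, 0.21 and, over all genes, -1.13. The greatest values were those of Uqcrc2, at 119 and 102 CPM against 22.5 and 27.9 CPM (log2 2.13, SE 0.70, adjusted p = 0.405), and Uqcrc1, at 673 and 632 CPM against 155 and 180 CPM (log2 1.96, SE 0.52, adjusted p = 0.325). The libraries did not overlap for either of these core proteins of complex III. Each related list also had a median above 0. Citric acid cycle genes were at 1.53, mitochondrial ribosomal proteins at 1.26 and cytosolic ribosomal proteins at 0.89. Endothelial markers summed to 607 to 612 CPM on DDC against 1660 to 1820 CPM on normal diet. Macrophage markers summed to 49200 to 57400 against 26300 to 40900 CPM, and monocyte markers to 948 to 1200 against 239 to 526 CPM. Hepatocyte markers overlapped, at 288 to 2750 against 322 to 454 CPM. The part of these markers was not tested. mt-Atp8 gave 2.08 (SE 1.88) from 5 and 9 counts on normal diet and 24 and 20 on DDC. Without normal-diet macrophage replicate 1 the all-gene median was 0.00 and the nuclear median 1.07.

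For DDC macrophages against the monocytes, 0.605% of genes were called higher and 0.126% lower. The nuclear median was 0.66 and the mitochondrial median 0.69, against -0.16 over all genes, and 6 nuclear and 0 mitochondrial members had an unadjusted p below 0.05, against 1694 of all genes. DESeq2 called 1 nuclear and 0 mitochondrial members. Cox5a, a complex IV subunit, was at 236 and 157 CPM in macrophages, 57.6 and 53.1 CPM in Ly6C-low and 83.5 and 52.6 CPM in Ly6C-high monocytes (log2 1.68, SE 0.52, adjusted p = 0.244). Sdhc was at 294 and 197 CPM against 75.9, 108, 142 and 103 CPM (log2 1.21, SE 0.46, adjusted p = 0.511). Both were above all 4 monocyte libraries. Endothelial markers summed to 607 to 612 CPM in these macrophages, 106 to 118 CPM in Ly6C-low and 118 to 323 CPM in Ly6C-high monocytes. Their part was not tested. mt-Nd4l gave 1.57 (SE 2.06) from 10 and 5 counts against 2 to 4 counts per monocyte library.

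For neutrophils against the monocytes, 1.24% of genes were called higher and 0.436% lower. The mitochondrial median was -1.36 and the nuclear median -0.72, against 0.00 over all genes, and 7 mitochondrial and 6 nuclear members had an unadjusted p below 0.05, against 3773 of all genes. DESeq2 called 3 mitochondrial and 0 nuclear members; under its scaling the medians were -0.88, -0.42 and 0.32. mt-Co3 was at 15.4 and 15.3 CPM in neutrophils, 52.8 and 45.9 CPM in Ly6C-low and 53.8 and 82.3 CPM in Ly6C-high monocytes (log2 -1.92, SE 0.51, adjusted p = 0.0715). The neutrophil libraries were below every monocyte library. Each related list also had a median below 0, with cytosolic ribosomal proteins at -1.5 and mitochondrial ribosomal proteins at -0.86. Of 80 cytosolic ribosomal proteins, 7 were called lower (edgeR). Endothelial markers summed to 796 to 1910 CPM in neutrophils, 106 to 118 CPM in Ly6C-low and 118 to 323 CPM in Ly6C-high monocytes. Macrophage markers summed to 2300 to 5680 CPM in neutrophils, against 4680 to 7680 and 5090 to 5110 CPM. The part of these markers was not tested. mt-Atp8 gave -2.02 (SE 1.77) from 5 and 1 counts, and mt-Nd4l had 0 counts in both neutrophil libraries, so no fold is given.

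The gene Gm10800 took 19.0% of counts in neutrophil replicate 2, 1.64% in neutrophil replicate 1, and 8.85% and 4.15% in Ly6C-high monocyte replicates 1 and 2; its part in the result was not tested. Without neutrophil replicate 1, only neutrophil replicate 2 was left, with 3817794 counts, and the all-gene median was -0.73. More members were called lower in that fit, as were more of all genes, so this is no result about the members. Ly6C-high against Ly6C-low monocytes gave 0% of genes called higher and 0% lower. No member had an unadjusted p below 0.05, against 461 genes in all, and DESeq2 called 0 members. The furthest values were those of Ndufs1 (log2 0.78, SE 0.61), Cyc1 (0.56, SE 0.56) and Ndufa9 (0.55, SE 0.54), each with an adjusted p of 1.0.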

How the data were processed

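Hepatocytes and immune cells from perfused mouse liver were sorted on a FACSAria and sequenced from Trizol RNA with a TruSeq RNA kit, per the labels' protocols. The values are the counts per gene deposited by the authors, raw and unnormalized. STAR, HTSeq, DESeq2 and the mm10 build are named in the submitters' processing notes; versions, strand setting and how reads with several matches were treated are, in the sources used here, not given. The deposited hepatocyte counts hold no gene with fewer than 10 counts in total. Gene names and coordinates are from GENCODE for GRCm38; the EGFP row stayed out of library sizes and tests. No protein sequence was used here.

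Each table was fitted whole with edgeR 4.0.16 (quasi-likelihood, TMM scaling, genes filtered by group, 1 term per group), giving 14339 genes with 8 residual degrees of freedom for hepatocytes and 27759 with 6 for immune cells. Standard errors are approximate, the log2 fold change divided by the square root of F. P-values were adjusted over all genes tested by Benjamini-Hochberg, with 0.05 as threshold. The analysis was tested on simulated counts. Copies were sought with blastn 2.17.0 at 97% identity or more over at least 30% of a transcript. Nothing in the labels places replicates in separate animals; a p-value therefore reflects the spread among libraries alone, and that spread may be technical.

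The members and gene lists were chosen with earlier results of these data known. In hepatocyte comparisons, all mitochondrial members, up to 12 called nuclear members by absolute fold change and the 2 uncalled ones furthest from 0 were named; in immune comparisons, the 3 with the largest absolute change; of other lists, up to 4 called genes. Members shown beyond these were chosen after their values were seen. Alternatives were DESeq2 1.42.0, median-of-ratios scaling, no filter, a replicate block, only the compared groups, scaling without mitochondrial genes, and leaving out libraries. Same-numbered libraries correlated between -0.15 and 0.115 in hepatocytes, so the numbers do not pair them.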

Additional observations from a re-analysis of the deposited data

Results flagged for a closer look

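A test of whether the STAT3 knockout effect differed between IL-6 and DDC, chosen after the data were seen, called 2 of 48 members (edgeR). In it 4.2% of all genes were called higher and 4.08% lower, so this count is near the share over all genes. The difference was 1.36 (log2) for mt-Co3 and 1.05 for Sdhb. For mt-Co3 the knockout effect was 1.09 with IL-6 and -0.27 with DDC, and for Sdhb 1.54 and 0.49, the value with DDC not passing the test (adjusted p = 0.853). Neither call held in every one of 19 fits. Only the IL-6 pair also differed in floxed genotype and in having a virus, so those factors cannot be told apart from loss of STAT3 here.

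EGFP, a transcript no comparison used, stood at 486 CPM in IL-6 replicate 3 against 2.18 and 2.41 CPM with the GFP plasmid and 9.24 and 5.73 CPM in IL-6 replicates 1 and 2. The DDC libraries, whose virus carries GFP, had 1190 and 1230 CPM. The label names an IL6 plasmid only. Without this library 31 nuclear members fell with IL-6, as with it, and the knockout comparison called 14 in place of 21. Over all genes, 1639 of 14230 were then called lower with IL-6 and 1830 higher in the knockout comparison.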

How the results depend on the processing

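Of the counts of called members, 189 stayed within 1.5 times of the value reported and 63 did not; of the single-gene results under the alternatives, 5788 kept their side of the threshold, 127 gained it, 173 lost it and 0 changed sign once called. The replicate block, for which the numbers do not pair the libraries, gave 0 nuclear calls in IL-6 STAT3KO against GFP plasmid and 0 in the difference of knockout effects.

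With only the compared groups fitted, the counts were 6 mitochondrial members for IL-6 against GFP plasmid, 8 nuclear for IL-6 STAT3KO against GFP plasmid, 0 mitochondrial and 0 nuclear for the difference of knockout effects, 2 nuclear for DDC against normal-diet macrophages and 2 nuclear for DDC macrophages against monocytes. Over all genes, in the same order, 2339 were called higher and 2053 lower of 13175, and 586 and 341 of 12968. The difference had 485 and 449 of 14174. The macrophage comparisons had 136 and 114 of 20944, and 674 and 320 of 18779. DESeq2 gave 5 mitochondrial for IL-6 against GFP plasmid, 7 mitochondrial for IL-6 STAT3KO against IL-6, 8 nuclear for IL-6 STAT3KO against GFP plasmid, 2 nuclear for the difference, 1 nuclear in each macrophage comparison and 3 mitochondrial for neutrophils. Over all genes, in the same order, DESeq2 called 2406 higher and 1971 lower of 14313, and 2068 and 2134 of 14313. The next 2 had 782 and 364 of 13757, and 880 and 1001 of 14313. The macrophage comparisons had 203 and 457 of 18072, and 483 and 283 of 14304. Neutrophils had 1577 and 651 of 18072. With no filter the neutrophil comparison had 2 mitochondrial calls, with 947 genes called higher and 363 lower of 44478. With IL-6 replicate 3 and DDC STAT3KO replicate 3 left out together, an alternative added after seeing the data, the counts were 7 mitochondrial for IL-6 against GFP plasmid, 7 mitochondrial for IL-6 STAT3KO against IL-6, 8 nuclear for IL-6 STAT3KO against GFP plasmid and, for the difference, 4 mitochondrial and 5 nuclear. Of all 14204 genes in that fit, 2311 were called higher and 2033 lower in the first comparison and 2263 and 2120 in the second. The third had 775 and 400, and the difference 1183 and 980. The 5 nuclear calls in the difference are near that share and are no result about the nuclear members.

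Leaving out single libraries gave, for IL-6 against GFP plasmid, 0 to 2 mitochondrial and 22 to 31 nuclear calls; for IL-6 STAT3KO against IL-6, 1 to 4 and 11 to 19; for IL-6 STAT3KO against GFP plasmid, 0 nuclear; for DDC against GFP plasmid, 10 to 16 nuclear; for the difference, 0 to 2 and 0 to 5; and for neutrophils, 0 to 3 and 0 to 14. The number of all genes called shifted too in these fits, and the cause of the shifts was not tested. Groups of 2 leave a lone library, assumed to vary like the other groups. Counting limits mt-Atp8 in both tables and mt-Nd4l in the immune table.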
